A study of Mus musculus with 6 samples.

Results

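The meiotic prophase genes described here are a list of 35 symbols for proteins that take germ cells into meiosis, build the chromosome axis and the synaptonemal complex, or break and recombine DNA. They were taken by symbol from the deposited table of read counts, in which 34 of them had a gene ID among 37991 in all, and Spata22 was not matched. The cells were mouse primordial germ cell-like cells (PGCLCs), grown from embryonic stem cells through an epiblast-like step to model the earliest germ line, as aggregates with BMP2, SCF, LIF and EGF. All 6 libraries were from day 4 of the PGCLC culture, on a C57BL/6 background, and all cells derived from stem cells with floxed Ezh2 (Ezh2f/f) and Cre-ERT2, a Cre recombinase that becomes active when 4-hydroxytamoxifen is added. The 3 Ezh2 KO libraries, labelled Ezh2-/-, CreERT2, were from cultures given 4-hydroxytamoxifen in ethanol as aggregation began, and the 3 Ctrl libraries, labelled Ezh2f/f, CreERT2, were from cultures given ethanol only. No Ctrl without Cre and no 4-hydroxytamoxifen control without floxed Ezh2 is among these libraries, so loss of Ezh2 and exposure to the drug cannot be told apart. The labels do not say how many lines or inductions the replicates came from, so p-values measure only the spread between these libraries.

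Meiosis is the pair of divisions by which a germ cell comes to carry a single chromosome set. In its prophase, cohesin and axis proteins fold each chromosome into loops, programmed breaks are made and repaired from the partner chromosome, and the synaptonemal complex zips partners together. In the mouse embryo, germ cells enter this programme in the fetal ovary after they have colonised the gonad, well after the stage that day 4 PGCLCs model, yet many of its genes are germline genes whose promoters are held silent in somatic cells by DNA methylation and by a variant polycomb complex that contains Mga, Max, E2f6 and Pcgf6. Ezh2 is a catalytic subunit of another polycomb complex, PRC2, which marks silent promoters with H3K27me3. The comparison asks whether transcripts of this programme depended on Ezh2 in these cells.

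Total counts per library ran from 27072150 to 49382146, and levels are CPM, counts scaled to a common library size, after TMM. Ezh2 itself (ENSMUSG00000029687) stood at 91.8, 78.1 and 95.3 CPM (Ctrl) against 40.8, 67.1 and 70.03 CPM (Ezh2 KO), replicates 1 to 3 in that order, as in all such lists here. Each Ezh2 KO library was thus below each Ctrl library, with a log2 fold change of -0.58 (95% interval -1.10 to -0.048) and an adjusted p of 0.976 in edgeR's quasi-likelihood test. Counts over the whole gene do not show how much of the deleted part was left. Of 10 PGC markers all 10 were detected, with a summed level of 1652 to 1845 CPM in Ctrl and 1325 to 1741 CPM in Ezh2 KO. Nanog and Pou5f1, which are also core pluripotency genes, weighed most in this sum, with Ctrl means of 513.6 and 362.9 CPM. None of the 10 was called, but 8 of the 10 had a negative log2 fold change (median -0.29), where over all tested genes 51.3% were positive. In 5 of the 10 the Ezh2 KO library was lower in all 3 same-numbered pairs, against 14.8% of all tested genes. Genes of later germ cells were present as well, with Dazl at 49.1, 50.2 and 34.95 CPM (Ctrl) against 53.7, 58.8 and 33.1 CPM (Ezh2 KO) and Ddx4 at 24.1, 21.6 and 18.7 CPM (Ctrl) against 28.9, 21.2 and 15.9 CPM (Ezh2 KO). Markers of mesoderm and endoderm, neural cells and fibroblasts were low, while those of epiblast were mixed. Of 12 mesoderm and endoderm markers 7 were detected (summed 5.85 to 13.6 CPM in Ctrl and 5.71 to 10.9 CPM in Ezh2 KO), with Foxf1 and Cer1 at 0 in every library. Of 4 matched neural markers 3 were detected (3.29 to 5.39 and 2.28 to 3.32 CPM), and of 6 fibroblast markers 4 (5.94 to 8.37 and 2.43 to 5.32 CPM). Of 5 epiblast markers 3 were detected, and Pou3f1 was at 0. Their summed level, most of it Dnmt3b, was 56.3 to 72.1 CPM in Ctrl and 81.9 to 105 CPM in Ezh2 KO, without overlap. The part of these cell types in the levels below was not tested, and in bulk RNA fewer cells of a type and less RNA per cell cannot be told apart.

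Upstream sequences are shown for 4 members, to show what the members' upstream windows hold and lack, which the list was not chosen by. RefSeq promoter windows (GRCm38.p6) were given for 28 members, Spata22 among them, and the 250 bases before the start were searched on both strands. The E-box CACGTG, which Mga and Max can bind, was in 7 of the 28 (25%), against 6.86% of 27025 genes with a window and 9.85% of the 10782 of these that were tested for expression. TTCCCGC, letters of the E2F motif, was in 10 of 28 (35.7%), against 4.38% and 8.18%. At least 1 of the E2F stretches, TTCCCGC or the partly overlapping GC-rich one, CCCGCC, was in 18 of 28 (64.3%), against 35.9% of all genes but 63.4% of the tested ones, a share near that of the members. CNCCTCAG, the letters associated with Stra8 binding, was in 4 of 28 (14.3%), against 7.39% and 8.67%. Sycp3 and Hormad1 were the only members with a pair of E-boxes, and Stra8 and Rad21l, one well detected and the other not, held neither an E-box nor the E2F letters. The windows run 5′ to 3′ along the gene and end just before its start, with the E-box and both E2F stretches (either strand) in capitals.
Sycp3 (chr10:88459337-88459586, plus strand): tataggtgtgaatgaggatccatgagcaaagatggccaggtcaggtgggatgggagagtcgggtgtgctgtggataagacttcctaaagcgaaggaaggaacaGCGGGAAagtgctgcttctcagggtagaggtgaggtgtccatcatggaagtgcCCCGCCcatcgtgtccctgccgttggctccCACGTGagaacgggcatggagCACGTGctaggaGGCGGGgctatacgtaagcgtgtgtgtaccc
Hormad1 (chr3:95559427-95559676, plus strand): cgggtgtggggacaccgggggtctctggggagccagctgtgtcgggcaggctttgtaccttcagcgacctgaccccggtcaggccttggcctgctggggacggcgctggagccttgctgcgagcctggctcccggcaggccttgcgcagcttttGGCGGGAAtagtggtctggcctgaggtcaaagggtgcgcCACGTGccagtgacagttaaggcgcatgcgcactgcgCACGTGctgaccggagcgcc
Stra8 (chr6:34920698-34920947, plus strand): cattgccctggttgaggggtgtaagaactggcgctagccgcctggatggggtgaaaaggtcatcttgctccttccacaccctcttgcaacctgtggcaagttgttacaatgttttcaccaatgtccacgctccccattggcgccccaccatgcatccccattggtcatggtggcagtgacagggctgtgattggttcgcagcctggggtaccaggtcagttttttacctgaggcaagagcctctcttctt
Rad21l (chr2:151668534-151668783, minus strand): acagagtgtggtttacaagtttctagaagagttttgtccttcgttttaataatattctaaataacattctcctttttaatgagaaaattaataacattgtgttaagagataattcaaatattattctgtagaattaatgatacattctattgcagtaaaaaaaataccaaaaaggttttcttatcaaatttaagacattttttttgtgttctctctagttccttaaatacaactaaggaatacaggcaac
In Sycp3 the E-boxes begin 64 and 43 bases before the start, and in Hormad1 57 and 20 bases before it. The Rad21l window held 1 CpG and had a GC content of 25.6%, while that of Hormad1 held 19 CpGs at 68% GC. CpG number did not separate detected members from others. Mei1 and Rnf212, which gave only traces of reads, held 8 and 16 CpGs, and the detected Msh4 and Stra8 held 4 and 5. Over the 24 detected members with a window the median was 13.5 CpGs, against 6 over all genes and 17 over tested genes, each gene counted once by its window with the highest count. These matches are descriptions of letters and do not show binding.

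Most of the meiotic prophase genes were transcribed in day 4 PGCLCs. A member was called detected when at least 3 libraries held 10 or more reads of it, which 30 of the 34 did, against 43.6% of all gene IDs in the table. Those IDs were not limited to genes for proteins, as the members are, and 11017 of the 37991 had no read. The share is thus no measure of how often a gene for a protein was detected. The same 30 passed the filter on low counts and were tested. Rad21l, Spo11, Mei1 and Rnf212 gave only traces, and no member was without reads. At least 1 CPM in 3 libraries was reached by 25 members, and at least 1 CPM per kilobase of exon in 3 libraries by 21. Per kilobase, the order of mean levels over the 6 libraries began with Syce2 at 89.9 CPM per kb (library range 73.7 to 101), ahead of Hsf2bp at 33.2 (26.8 to 40.05) and Psmc3ip at 32.95 (27.1 to 43.4). The range of Syce2 lay above the others, while those of Hsf2bp and Psmc3ip overlapped. Then came Syce1 (21.6), Hormad1 (16.7) and Stra8 (10.3), and at the low end of the detected members were Meiob (0.181), Sycp2 (0.107) and Msh4 (0.0779). On this scale Syce2 was at the 94.8 percentile of tested genes and Msh4 at the 1.91 percentile.

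**Figure D1:**
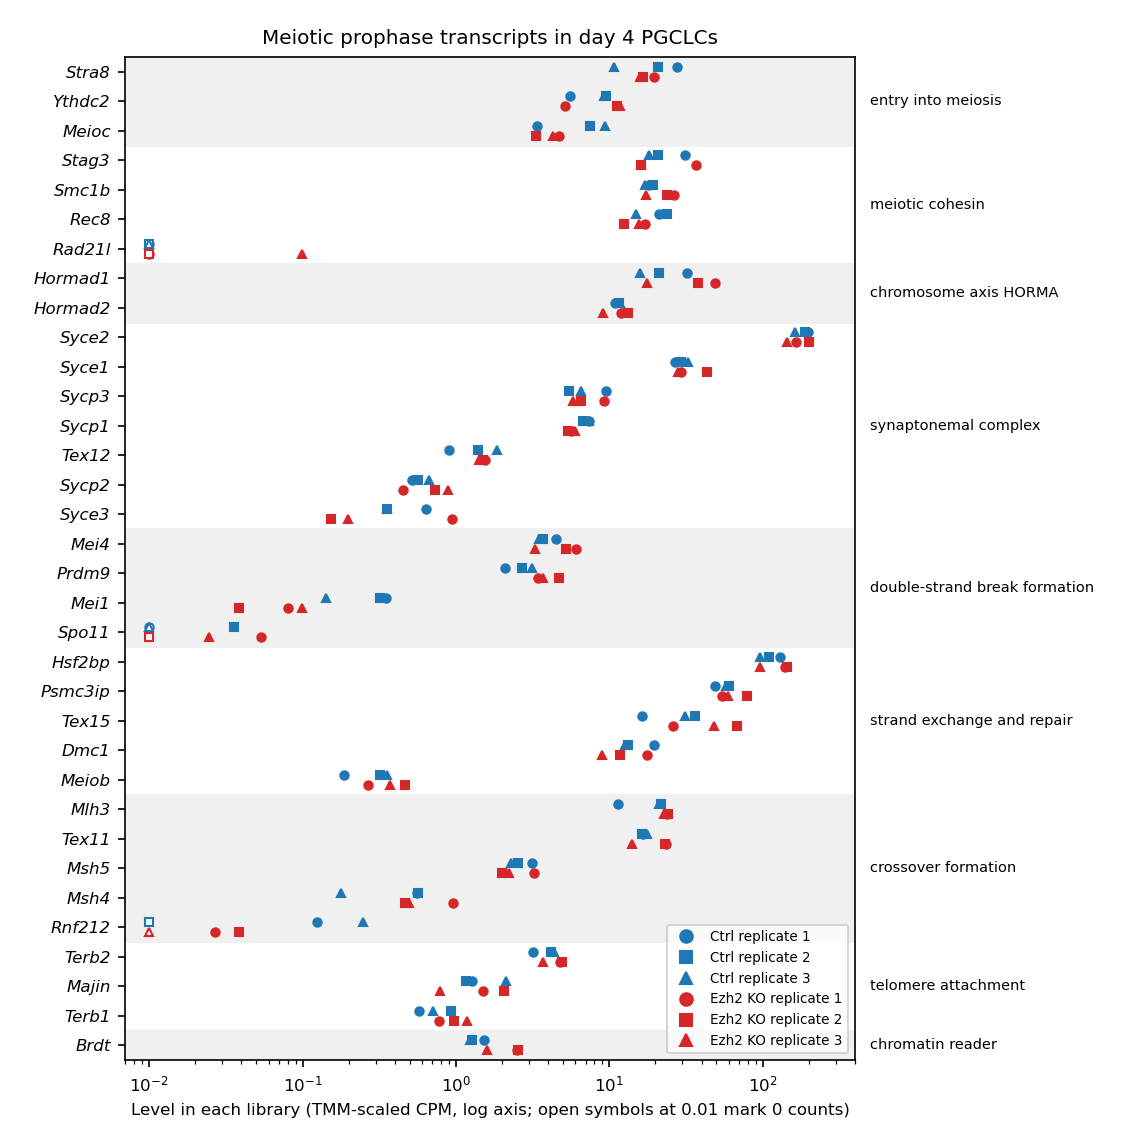
Level of the 34 matched members in each library, in TMM-scaled CPM on a log axis, grouped by role. Blue marks Ctrl, red marks Ezh2 KO, the shape gives the replicate number, and open symbols at 0.01 stand for 0 reads. Syce2 and Hsf2bp lie near or above 100 CPM in all libraries, Rad21l and Spo11 at or below 0.0988 CPM, and the colours overlap for most genes.

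No meiotic prophase gene passed the test between Ezh2 KO and Ctrl. The edgeR quasi-likelihood test called 0 of the 30 tested members, and it called 0.00% of all 16420 tested genes, with 0 members at an unadjusted p under 0.05 against 2.80% of all genes. DESeq2 called 0 of 34 members and 5 of 26974 genes. At an unadjusted p under 0.05 it had 2 members, Brdt and Mei1, and 737 genes. Limma-voom called 0 of 30 members and 0 of 16420 genes, with 0 members and 466 genes at an unadjusted p under 0.05. Adjusted p in edgeR ran from 0.976 to 0.999 over the members. The 95% intervals of all 30 included 0, and those of 16 excluded a 2-fold change in either direction. Positive log2 fold changes, meaning higher in Ezh2 KO, were found in 20 members (66.7%), against 51.3% of all tested genes, and the median was 0.19 against 0.0097. The summed level of the 34 members was 653, 645 and 575 CPM in Ctrl and 691, 765 and 563 CPM in Ezh2 KO (624 ± 43.1 and 673 ± 102, SD, n = 3), so the groups overlapped. Syce2, Hsf2bp and Psmc3ip, with Ctrl means of 183.9, 112.0 and 55.5 CPM, weighed most in this sum.

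**Figure D2:**
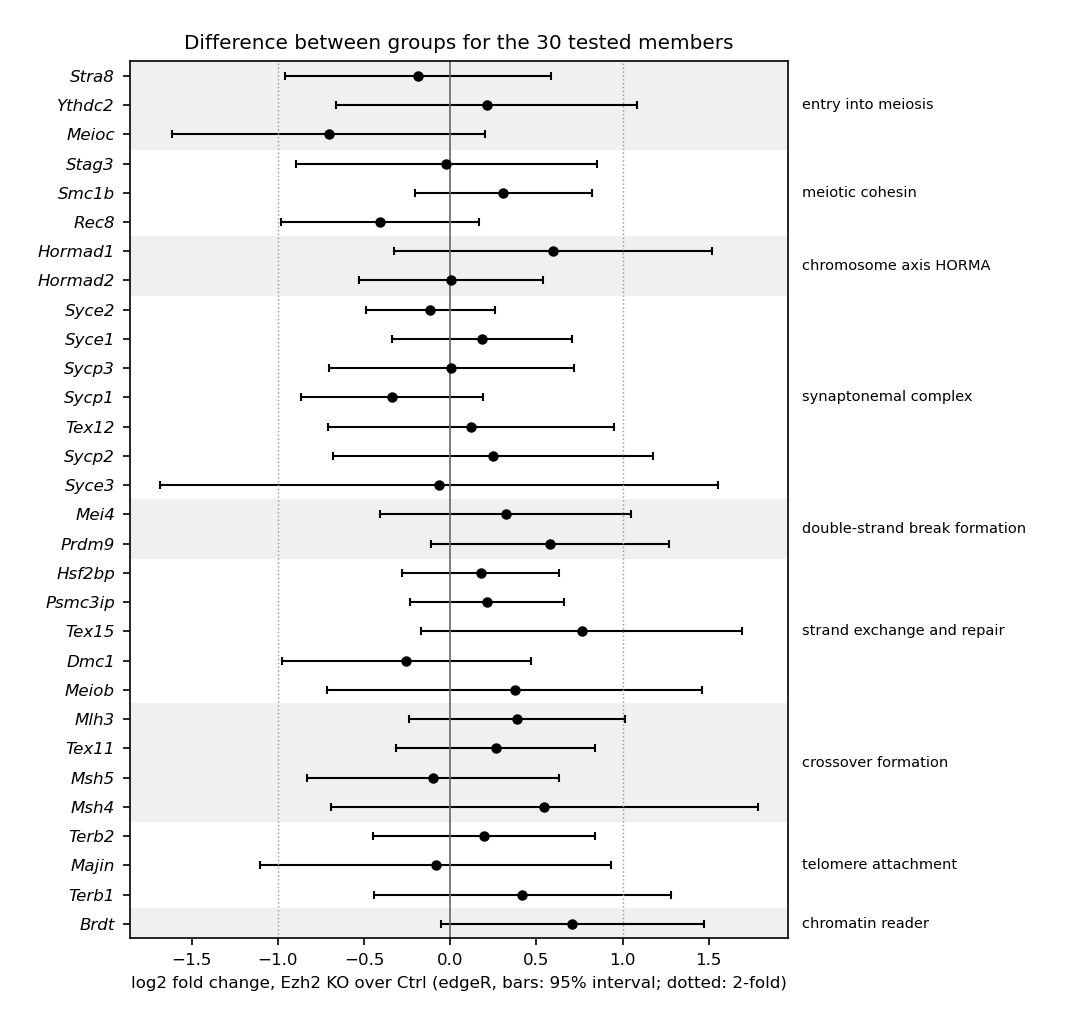
Log2 fold change of the 30 tested members, Ezh2 KO over Ctrl, from edgeR, with bars for the 95% interval and dotted lines at a 2-fold change. Every interval crosses 0, and point estimates run from -0.71 for Meioc to 0.76 for Tex15.

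Among genes of entry into meiosis, Stra8, the transcription regulator that retinoic acid induces and that starts the meiotic programme, was detected in every library. Stra8 (ENSMUSG00000029848) stood at 27.4, 20.9 and 10.8 CPM (Ctrl) against 19.7, 16.5 and 15.8 CPM (Ezh2 KO). The 3 Ezh2 KO values lay within the range of the Ctrl values, and the mean was 19.7 ± 8.405 CPM (Ctrl) against 17.3 ± 2.102 CPM (Ezh2 KO) (SD, n = 3). Its log2 fold change was -0.19 ± 0.34, 95% interval -0.96 to 0.59, where ± is the standard error, as beside every log2 fold change here. Without Ctrl replicate 1 its log2 fold change was 0.13. Meioc (ENSMUSG00000051455), the partner of Ythdc2 that helps cells leave the mitotic cycle, stood at 3.38, 7.52 and 9.34 CPM (Ctrl) against 4.71, 3.32 and 4.32 CPM (Ezh2 KO). Ctrl replicate 1 was as low as the Ezh2 KO libraries while the other two Ctrl libraries were higher, and Meioc had the most negative estimate of the list (log2 fold change -0.71 ± 0.39, 95% interval -1.61 to 0.20). Single libraries moved it, to -1.03 without Ctrl replicate 1 and -0.43 without Ctrl replicate 3. Ythdc2 (ENSMUSG00000034653), an RNA helicase that reads methylated adenosine and works with Meioc, stood at 5.505, 9.47 and 9.27 CPM (Ctrl) against 5.11, 11.2 and 11.8 CPM (Ezh2 KO). Replicate 1 was the lowest of each group for Ythdc2, and the groups overlapped (log2 fold change 0.21, 95% interval -0.66 to 1.08).

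Of the 4 meiotic cohesin genes, 3 were detected, each at more than 12 CPM in all 6 libraries. Rec8 (ENSMUSG00000002324), the kleisin that holds sister chromatids through the first division, stood at 21.1, 23.8 and 15.04 CPM (Ctrl) against 17.1, 12.5 and 15.6 CPM (Ezh2 KO). Ezh2 KO replicates 1 and 3 lay inside the Ctrl range, and the log2 fold change was -0.41 ± 0.25, 95% interval -0.98 to 0.17. Smc1b (ENSMUSG00000022432), the meiotic form of the SMC subunit, stood at 18.1, 19.2 and 17.1 CPM (Ctrl) against 26.2, 23.8 and 17.3 CPM (Ezh2 KO). It was higher in the Ezh2 KO library of each same-numbered pair, at 145%, 124% and 101% of Ctrl in pairs 1 to 3 (log2 fold change 0.31 ± 0.22, 95% interval -0.21 to 0.82). Stag3 (ENSMUSG00000036928), the meiotic stromal antigen subunit, stood at 31.1, 20.9 and 18.2 CPM (Ctrl) against 36.96, 16.1 and 16.1 CPM (Ezh2 KO). Replicate 1 was the highest of both groups for Stag3, and the estimate was -0.022 (95% interval -0.90 to 0.85). Rad21l (ENSMUSG00000074704), an alternative kleisin, had 0, 0 and 0 reads in Ctrl and 0, 0 and 4 in Ezh2 KO. A count of 0 allows up to 0.0619 to 0.116 CPM in these libraries (3 reads, counting error only), and Rad21l, whose upstream window is printed above, was not detected.

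Hormad1 and Hormad2 mark chromosome axes that have not yet paired. Hormad1 (ENSMUSG00000028109) stood at 32.1, 21 and 15.96 CPM (Ctrl) against 48.7, 37.99 and 17.7 CPM (Ezh2 KO). It was higher in Ezh2 KO in each same-numbered pair, at 152%, 181% and 111% of Ctrl in pairs 1 to 3, but replicate 3 of both groups lay below 18 CPM and the groups overlapped (log2 fold change 0.59 ± 0.40, 95% interval -0.33 to 1.52). The estimate was 0.27 without Ezh2 KO replicate 1, 0.36 without Ctrl replicate 3, and 0.91 without Ctrl replicate 1 or without Ezh2 KO replicate 3. Hormad2 (ENSMUSG00000020419) stood at 10.9, 11.6 and 11.8 CPM (Ctrl) against 12.01, 13.2 and 9.16 CPM (Ezh2 KO). Its 6 libraries were within 1.44-fold of each other, with an estimate near 0 (log2 fold change 0.0039, 95% interval -0.53 to 0.54).

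All 7 synaptonemal complex genes were detected, from 0.107 CPM per kb for Sycp2 to 89.9 for Syce2. Syce2 (ENSMUSG00000003824), a central element protein, had the highest level per kilobase of the members and stood at 198, 190.2 and 164 CPM (Ctrl) against 165, 199.5 and 145 CPM (Ezh2 KO). The values differed by at most 1.38-fold and overlapped between groups (log2 fold change -0.11 ± 0.16, 95% interval -0.49 to 0.26). Its partner Tex12 (ENSMUSG00000032065), with which it forms filaments, stood at 0.907, 1.38 and 1.84 CPM (Ctrl) against 1.55, 1.51 and 1.41 CPM (Ezh2 KO). Per kilobase Tex12 stood at 1.41 and Syce2 at 89.9 CPM per kb. Syce1 (ENSMUSG00000025480), another central element protein, stood at 26.7, 29.2 and 32.6 CPM (Ctrl) against 29.1, 43.3 and 28.2 CPM (Ezh2 KO). Only Ezh2 KO replicate 2 exceeded the Ctrl range (log2 fold change 0.18, 95% interval -0.34 to 0.71). Syce3 (ENSMUSG00000078938), which recruits the central element, was near the limit, at 0.639, 0.355 and 0.354 CPM (Ctrl) against 0.936, 0.154 and 0.198 CPM (Ezh2 KO), and 2 of its libraries had fewer than 10 reads (log2 fold change -0.066, 95% interval -1.69 to 1.55).

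Sycp1 (ENSMUSG00000027855), the transverse filament that spans the gap between partner chromosomes, stood at 7.34, 6.78 and 7.32 CPM (Ctrl) against 5.59, 5.41 and 5.98 CPM (Ezh2 KO). It was the 1 tested member whose Ezh2 KO libraries all lay below all Ctrl libraries, at 7.15 ± 0.3204 CPM (Ctrl) against 5.66 ± 0.292 CPM (Ezh2 KO) (SD, n = 3). The log2 fold change of Sycp1 was -0.34 ± 0.23, 95% interval -0.87 to 0.19, with an unadjusted p of 0.181 and an adjusted p of 0.976 in edgeR. Sycp3 (ENSMUSG00000020059), the axis protein commonly used to stain meiotic chromosomes, whose E-boxes are printed above, stood at 9.46, 5.499 and 6.54 CPM (Ctrl) against 9.25, 6.56 and 5.83 CPM (Ezh2 KO). Replicate 1 of each group was the highest, and the estimate was 0.0069 (95% interval -0.70 to 0.72). Of the exon bases of Sycp3, 52.2% overlap those of Chpt1 on the opposite strand in GENCODE M21, so without a stated strand setting the Sycp3 level is uncertain. Sycp2 (ENSMUSG00000060445), the axis partner of Sycp3, stood at 0.515, 0.568 and 0.672 CPM (Ctrl) against 0.455, 0.734 and 0.889 CPM (Ezh2 KO). These are 16 to 36 reads per library, and the estimate for Sycp2 was 0.25 (95% interval -0.68 to 1.18).

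Of 4 genes for making double-strand breaks, 2 were detected. Prdm9 (ENSMUSG00000051977), the methyltransferase that sets where recombination occurs, stood at 2.103, 2.696 and 3.15 CPM (Ctrl) against 3.45, 4.71 and 3.71 CPM (Ezh2 KO). All Ezh2 KO libraries lay above all Ctrl libraries, at 2.65 ± 0.524 CPM (Ctrl) against 3.96 ± 0.666 CPM (Ezh2 KO) (SD, n = 3). The log2 fold change was 0.58 ± 0.30, 95% interval -0.11 to 1.27 (unadjusted p = 0.0887, adjusted p = 0.976, edgeR). Mei4 (ENSMUSG00000043289), required for break formation, stood at 4.47, 3.69 and 3.47 CPM (Ctrl) against 6.097, 5.21 and 3.26 CPM (Ezh2 KO) (log2 fold change 0.32, 95% interval -0.40 to 1.05), with Ezh2 KO replicate 3 as the lowest library. Spo11 (ENSMUSG00000005883), the enzyme that cuts the DNA, had 0, 1 and 0 reads in Ctrl and 2, 0 and 1 in Ezh2 KO. It was thus not detected at this depth although Mei4, Prdm9 and the downstream recombinase were. Mei1 (ENSMUSG00000068117), also needed for breaks, had 17, 9 and 4 reads in Ctrl and 3, 1 and 4 in Ezh2 KO, or 0.3505, 0.319 and 0.141 CPM (Ctrl) against 0.0802, 0.0386 and 0.0988 CPM (Ezh2 KO). Each Ezh2 KO library of Mei1 was below each Ctrl library, but it missed the count filter, and with no filter edgeR gave a log2 fold change of -1.84 (unadjusted p = 0.0255, adjusted p = 0.879).

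All 5 matched genes of strand exchange and repair were detected, and Hsf2bp and Psmc3ip stood next after Syce2 per kilobase. Dmc1 (ENSMUSG00000022429), the meiosis-specific recombinase, stood at 19.6, 13.3 and 12.7 CPM (Ctrl) against 17.6, 11.7 and 8.97 CPM (Ezh2 KO). It was lower in the Ezh2 KO library of each same-numbered pair, at 89.8%, 87.7% and 70.8% of Ctrl, but the groups overlapped (log2 fold change -0.25 ± 0.31, 95% interval -0.98 to 0.47). Psmc3ip (ENSMUSG00000019303), which helps Dmc1 invade the partner DNA, stood at 49.2, 59.96 and 57.3 CPM (Ctrl) against 54.5, 78.8 and 59.5 CPM (Ezh2 KO). Its estimate was 0.21 (95% interval -0.24 to 0.66), and 21.2% of its exon bases overlap Mlx on the opposite strand. Hsf2bp (ENSMUSG00000002076), which binds the Brca2 protein and is expressed in stem cells too, stood at 129, 111 and 96.1 CPM (Ctrl) against 139, 144 and 96.8 CPM (Ezh2 KO). The replicate 3 libraries were close, at 96.1 and 96.8 CPM, and the estimate was 0.18 (95% interval -0.28 to 0.63).

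Tex15 (ENSMUSG00000009628), required in male germ cells for meiotic repair and for silencing of transposons, stood at 16.2, 36.5 and 31.4 CPM (Ctrl) against 25.9, 68.3 and 48.3 CPM (Ezh2 KO). Replicate 1 was the lowest and Ezh2 KO replicate 2 the highest, a 4.21-fold span, and Tex15 had the most positive estimate of the list (log2 fold change 0.76 ± 0.41, 95% interval -0.17 to 1.70). It was 0.42 without Ezh2 KO replicate 2, 0.48 without Ctrl replicate 1 and 1.06 without Ezh2 KO replicate 1. In same-numbered pairs Ezh2 KO was at 159.7%, 187% and 154% of Ctrl. Meiob (ENSMUSG00000024155), which coats single-stranded DNA, stood at 0.185, 0.319 and 0.354 CPM (Ctrl) against 0.267, 0.463 and 0.3705 CPM (Ezh2 KO). These are 9 to 15 reads per library, and the estimate for Meiob was 0.37 (95% interval -0.71 to 1.46).

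Among genes of crossover formation, Tex11 (5.13 CPM per kb) and Mlh3 (2.76) stood above Msh5 (0.465). Mlh3 (ENSMUSG00000021245), which takes part in resolving crossovers, stood at 11.5, 21.8 and 20.9 CPM (Ctrl) against 23.9, 24.1 and 22.8 CPM (Ezh2 KO). All Ezh2 KO libraries lay above all Ctrl libraries, the nearest being 22.8 and 21.8 CPM, and Ctrl replicate 1 was far below the rest. The mean was 18.1 ± 5.73 CPM (Ctrl) against 23.6 ± 0.699 CPM (Ezh2 KO) (SD, n = 3), with a log2 fold change of 0.39 ± 0.27, 95% interval -0.24 to 1.01 and an adjusted p of 0.976 (edgeR). Without Ctrl replicate 1 the estimate was 0.14. Tex11 (ENSMUSG00000009670), an X-linked crossover protein, stood at 16.6, 16.3 and 17.7 CPM (Ctrl) against 23.6, 23.2 and 14.1 CPM (Ezh2 KO). Ezh2 KO replicate 3 was the lowest and the other Ezh2 KO libraries the highest, so the groups overlapped (log2 fold change 0.26, 95% interval -0.31 to 0.84). Msh5 (ENSMUSG00000007035), which stabilises crossover intermediates, stood at 3.11, 2.56 and 2.3 CPM (Ctrl) against 3.21, 2.01 and 2.22 CPM (Ezh2 KO) (log2 fold change -0.10, 95% interval -0.83 to 0.63). Its partner Msh4 (ENSMUSG00000005493) had 27, 16 and 5 reads in Ctrl and 36, 12 and 20 in Ezh2 KO. At 0.177 to 0.963 CPM (log2 fold change 0.55, 95% interval -0.69 to 1.79) it was the least abundant tested member per kilobase. Rnf212 (ENSMUSG00000055385), which marks sites of crossover, had 6, 0 and 7 reads in Ctrl and 1, 1 and 0 in Ezh2 KO and was not detected.

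Majin, Terb1 and Terb2 form the complex that ties telomeres to the nuclear envelope. Terb2 (ENSMUSG00000027229) stood at 3.196, 4.19 and 4.35 CPM (Ctrl) against 4.79, 4.94 and 3.68 CPM (Ezh2 KO) (log2 fold change 0.19, 95% interval -0.45 to 0.84). Majin (ENSMUSG00000024786) stood at 1.28, 1.17 and 2.12 CPM (Ctrl) against 1.498, 2.05 and 0.7905 CPM (Ezh2 KO) (log2 fold change -0.084, 95% interval -1.10 to 0.94). Terb1 (ENSMUSG00000052616) stood at 0.577, 0.922 and 0.708 CPM (Ctrl) against 0.775, 0.965 and 1.19 CPM (Ezh2 KO) (log2 fold change 0.42, 95% interval -0.44 to 1.28). The groups overlapped for all 3, although Terb1 was higher in the Ezh2 KO library of each pair. Brdt (ENSMUSG00000029279), a bromodomain protein of the male germ line that reads acetylated histones, stood at 1.53, 1.28 and 1.24 CPM (Ctrl) against 2.49, 2.55 and 1.61 CPM (Ezh2 KO). All Ezh2 KO libraries were above all Ctrl libraries, though Ctrl replicate 1 and Ezh2 KO replicate 3 were close, at 1.53 and 1.61 CPM. Brdt had the smallest unadjusted p of the members in edgeR, 0.0647, with 1.35 ± 0.156 CPM (Ctrl) against 2.21 ± 0.527 CPM (Ezh2 KO) (SD, n = 3) and a log2 fold change of 0.71 ± 0.33, 95% interval -0.054 to 1.47 (adjusted p = 0.976).

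Groups that did not overlap were thus seen in 4 of the 30 tested members (13.3%), against 8.09% of all tested genes. Prdm9, Mlh3 and Brdt were the 3 higher in Ezh2 KO, where the share over all genes was 4.07%, and Sycp1 was the 1 lower, where it was 4.03%. Libraries of the same number deviated together over all genes, though Ctrl replicate 3 did so more with Ezh2 KO replicate 2 (r = 0.297) than with its own number (r = 0.192), and pairs were also compared. In all 3 pairs the Ezh2 KO library was higher for 10 members (33.3%, against 17.9% of all tested genes) and lower for 2 (6.67%, against 14.8%). The 10 were Smc1b, Hormad1, Prdm9, Tex15, Psmc3ip, Hsf2bp, Meiob, Mlh3, Terb1 and Brdt, and the 2 were Sycp1 and Dmc1. Across these 10, the value nearest to Ctrl was 100.7% of it, for Hsf2bp in pair 3. With the replicate number as a block, edgeR called 0 members and 0.00% of all genes. At an unadjusted p under 0.05 it had 4 members (13.3%), Tex15, Hormad1, Brdt and Prdm9, against 9.10% of all genes, and the smallest adjusted p of a member was 0.462, for Tex15. DESeq2 with that block called 0 of 34 members and 50 of 26974 genes, but gave no adjusted p for Rad21l, Spo11 and Rnf212. At an unadjusted p under 0.05 it had 2 members, Tex15 and Hormad1, and 1270 genes.

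**Figure D3:**
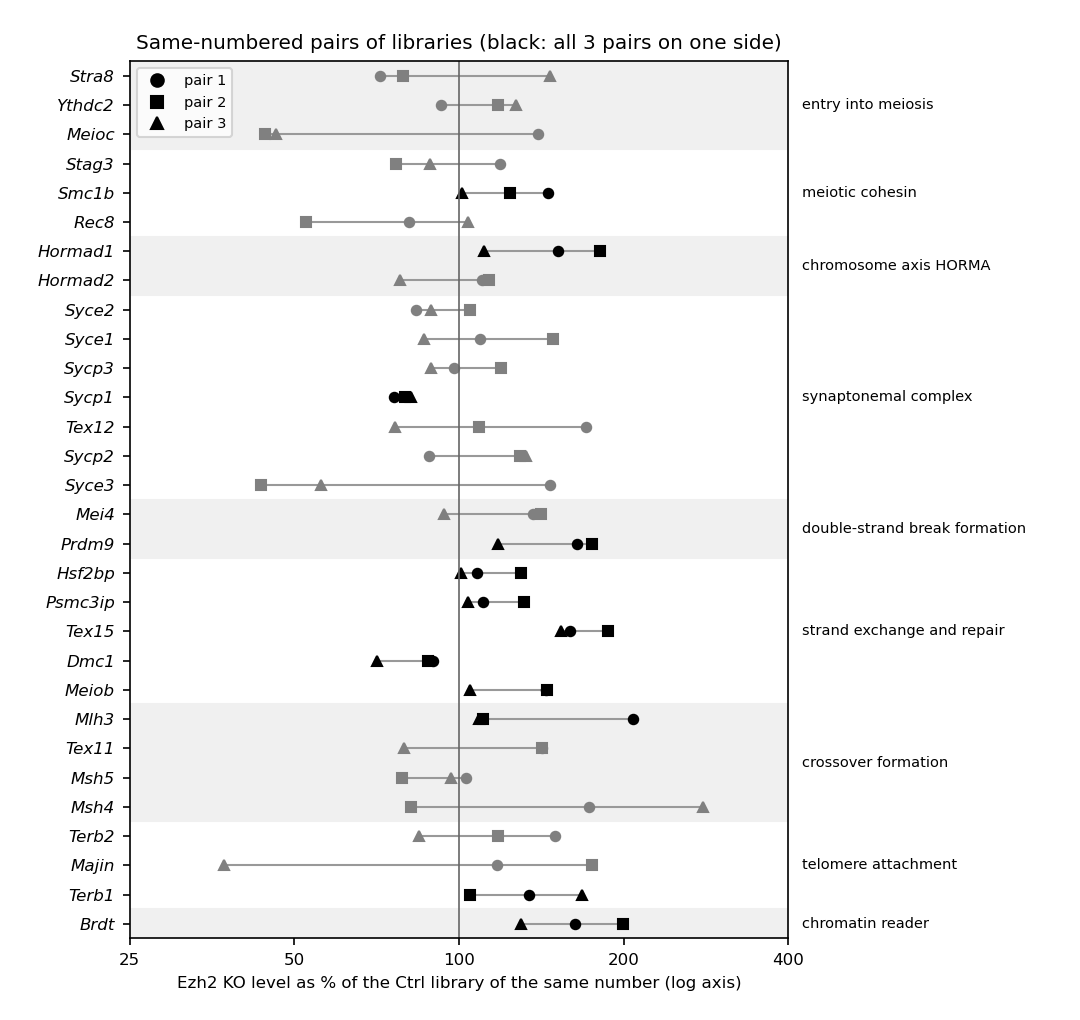
Level of each tested member in an Ezh2 KO library as a percentage of its same-numbered Ctrl library, on a log axis, with pairs 1 to 3 as circles, squares and triangles. Black marks the 12 members with all 3 pairs on one side of 100%. Tex15 lies at 154% to 187% and Sycp1 at 76.2% to 81.6%, while Majin runs from 37.2% to 175%.

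Which library was highest or lowest differed from member to member. The first principal component over all tested genes held 55.5% of the variance, with Ctrl replicate 1 at -61.4, Ezh2 KO replicate 2 at 78.0 and the others between -35.5 and 13.3. Ezh2 KO replicate 2 was the highest library for 11 of the 30 tested members, near its share of 31.0% over all tested genes, and Ctrl replicate 1 was the lowest for 9, near its share of 24.4%. Ezh2 KO replicate 1 was the highest for 8, against 15.7% of all tested genes, and Ctrl replicate 1 the highest for 4, against 24.1%. These shares were not tested.

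Rec8, Smc1b and Msh5 stood below a relative at work in dividing cells in every library, while Stag3 stood above one such relative, Stag2, and, in 5 of 6 libraries, below another, Stag1. Values in this paragraph are CPM per kilobase of exon as means over the 6 libraries, with the range of the ratio over libraries. Rec8 was at 5.97 against 82.3 for Rad21, the mitotic kleisin, or 5.64% to 10.2% of it, and Rad21l was at 0% to 0.0729%. Smc1b was at 5.01 against 31.5 for Smc1a, or 13.6% to 21.1%. Stag3 was at 4.05, between Stag1 at 9.002 (26.0% to 134%) and Stag2 at 1.65 (144% to 509%). The ratio of Stag3 to Stag2 was above 100% in every library, with replicate 1 of each group the highest. Stag2 was itself far below Rad21 and Smc1a, so this ratio does not show that Stag3 was high. Why Stag2 was low was not tested. Msh5 was at 0.465, or 0.332% to 0.574% of Msh6, the mismatch repair relative.

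**Figure D4:**
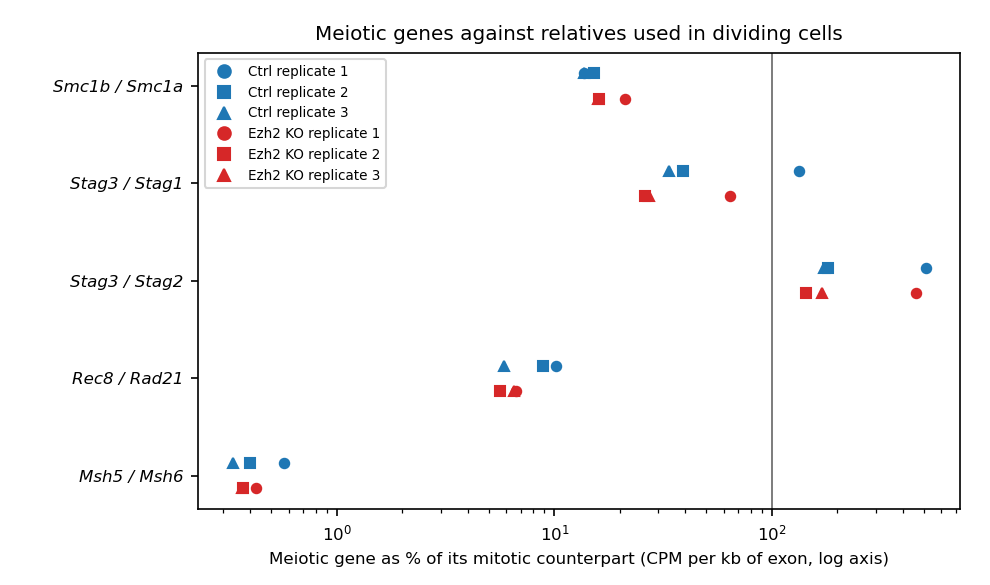
Level of 4 meiotic genes as a percentage of a relative used in dividing cells, both in CPM per kilobase of exon, in each library, on a log axis, with Stag3 set against both Stag1 and Stag2. Blue marks Ctrl, red marks Ezh2 KO and the shape gives the replicate number. Of these ratios only those of Stag3 reach 100%, and those of Msh5 to Msh6 are 0.332% to 0.574%.

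Further genes of meiosis that are not among the 35 were mostly detected too, but this list was not limited to genes used only in meiosis. It held Cdk2, for example, at 138.5 to 193.3 CPM. Of 34 listed, 31 were matched and 29 detected, against 43.6% of all gene IDs in the table, which include IDs that do not code for proteins. EdgeR called 0 of these 29 (0 at an unadjusted p under 0.05, DESeq2 0 of 31 with 1 unadjusted, limma-voom 0 of 29 with 0). Log2 fold changes were positive in 12 and negative in 17, with a median of -0.082. The smallest p was that of Rbm46, an RNA-binding protein needed for meiotic entry, at 1.32, 1.74 and 2.19 CPM (Ctrl) against 0.989, 1.12 and 1.09 CPM (Ezh2 KO), and the groups did not overlap (log2 fold change -0.71 ± 0.34, 95% interval -1.48 to 0.064). The next smallest was that of Meikin, a kinetochore regulator of the first meiotic division, at 2.43, 1.28 and 1.77 CPM (Ctrl) against 1.203, 1.47 and 1.33 CPM (Ezh2 KO) (log2 fold change -0.46, 95% interval -1.27 to 0.35). Mnd1, the partner of Psmc3ip, stood at 16.7, 14.7 and 18.8 CPM (Ctrl) against 14.7, 16.2 and 13.4 CPM (Ezh2 KO). Rec114, the partner of Mei4, stood at 30.4, 29.4 and 29.8 CPM (Ctrl) against 33.8, 41.1 and 24.9 CPM (Ezh2 KO), or 24.7 CPM per kb against 1.06 for Mei4. The 23 mitotic counterparts were all detected, with 0 called (0 unadjusted, and 0 with 0 in DESeq2 and limma-voom) and a median of -0.014. Brd3, a bromodomain relative of Brdt and among the 2 of smallest p, stood at 224, 166 and 155 CPM (Ctrl) against 162, 141 and 144 CPM (Ezh2 KO) (log2 fold change -0.29, 95% interval -0.69 to 0.11).

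Genes that repress germline promoters, among them the Mga and E2f6 complex whose letters were searched above, were all 20 detected. EdgeR called 0 of 20 (1 at an unadjusted p under 0.05, as in DESeq2 and limma-voom, each with 0 called), and the median log2 fold change was -0.065. Mga stood at 126, 144 and 156 CPM (Ctrl) against 123, 162 and 163 CPM (Ezh2 KO) and E2f6 at 4.23, 6.81 and 6.76 CPM (Ctrl) against 4.198, 6.76 and 6.45 CPM (Ezh2 KO), with overlapping groups. Max stood at 145, 139 and 145 CPM (Ctrl) against 137, 70.7 and 129 CPM (Ezh2 KO). All Ezh2 KO libraries lay below all Ctrl libraries, with Ezh2 KO replicate 2 far below the rest (log2 fold change -0.35 ± 0.24, 95% interval -0.91 to 0.20). The gene with an unadjusted p under 0.05 was Dnmt3b, a DNA methyltransferase, at 47.6, 44.4 and 51.9 CPM (Ctrl) against 54.95, 75.8 and 91.3 CPM (Ezh2 KO) (log2 fold change 0.63 ± 0.21, 95% interval 0.14 to 1.12). Dnmt3b is also an epiblast marker, and the part of epiblast-like cells in its level was not tested. It was followed by Ehmt2, an H3K9 methyltransferase, at 69.2, 52.4 and 40.9 CPM (Ctrl) against 46.5, 32.3 and 45.2 CPM (Ezh2 KO) (log2 fold change -0.39, 95% interval -0.96 to 0.18).

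Retinoic acid is the signal that induces Stra8 in the embryo, and genes of its synthesis, binding and response had more negative than positive estimates. Of 18 genes 15 were tested, and edgeR called 0 (3 at an unadjusted p under 0.05; DESeq2 0 of 18 with 5, limma-voom 0 of 15 with 3). The share at an unadjusted p under 0.05 over all tested genes was 2.80%. Negative log2 fold changes were found in 11 of 15, with a median of -0.37, where over all tested genes 51.3% were positive and the median was 0.0097. In 4 of 15 the Ezh2 KO libraries were all below the Ctrl libraries, against 4.03% of all tested genes. Aldh1a2, the main enzyme of retinoic acid synthesis in the embryo, stood at 1.38, 1.24 and 1.03 CPM (Ctrl) against 0.401, 0.463 and 0.173 CPM (Ezh2 KO) (log2 fold change -1.84 ± 0.45, 95% interval -2.87 to -0.80, unadjusted p = 0.00335, adjusted p = 0.976 in edgeR). Its level was low, with 67, 35 and 29 reads in Ctrl and 15, 12 and 7 in Ezh2 KO. Beside these values, the summed fibroblast markers did not overlap either (2.43 to 5.32 CPM in Ezh2 KO, 5.94 to 8.37 in Ctrl), and the summed neural markers overlapped narrowly (2.28 to 3.32 and 3.29 to 5.39). Their part in the values was not tested.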

How the data were processed

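The deposited table holds raw counts, integers for each Ensembl gene without scaling by the authors, for 3 Ctrl and 3 Ezh2 KO libraries of sorted day 4 PGCLCs. CASAVA 1.8.4, Trimmomatic 0.33, TopHat2 2.0.11, featureCounts and the builds mm9 and NCBIM37 are named per the submitters' processing notes. The sources used here do not give counting settings, strand or annotation version. Symbols, exon lengths and overlaps came from GENCODE M21 (GRCm38) by gene ID, synonyms from RefSeq, so lengths are approximate for the authors' gene models.

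Genes kept by filterByExpr (minimum count 10) numbered 16420 and were tested with edgeR 4.0.16 (R 4.3.3) by the robust quasi-likelihood F-test after TMM, two-sided, with Benjamini-Hochberg adjustment over all tested genes and a threshold of 0.05. Standard errors came from the F statistic. DESeq2 1.42.0 and limma 3.58.1 (voom) were alternatives. The functions were tested on simulated data. Deviations from group means correlated at 0.583, 0.368 and 0.192 in same-numbered pairs over 16420 genes, all positive, so numbers were taken to pair the libraries, from the data and not from a label. Ctrl replicate 3 correlated more with Ezh2 KO replicate 2 (0.297). The pair comparisons and block fits use the same counts that the pairing was taken from, so they are no independent support for it. Members and lists were chosen with earlier results of these data known. All 35 members are accounted for, each tested one with every library, and each other list by counts and its 2 genes of smallest p, apart from some genes that are not reported here. Mnd1, Rec114, Cdk2, Mga, E2f6, Max, Dazl and Ddx4 were named outside that rule, after their values were seen.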

Additional observations from a re-analysis of the deposited data

How the results depend on the processing

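The count of members called was 0 under the main analysis and under every alternative run: other scaling, DESeq2, limma-voom, no filter, a stricter filter, the replicate block in edgeR and DESeq2, each library left out, and removal of Ctrl replicate 1 with Ezh2 KO replicate 2. Over the whole table DESeq2 called 5 genes and DESeq2 with the replicate block 50, none of them a member, where the other fits called 0. The replicate block changed no call of a member (smallest adjusted p 0.462 in edgeR). With 10 reads in 3 libraries 30 members were detected, and between 21 and 30 under the other limits. The summed level in Ezh2 KO was 108% of Ctrl, and 100.5% to 117% with 1 library left out.

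Of the 30 tested members, 16 kept the sign of their log2 fold change under every alternative and 14 did not, in 43 of 415 values, none of which was called. For Hormad2 and Sycp3, both near 0, the sign turned under DESeq2 size factors (-0.0057 and -0.00013), DESeq2 (-0.012 and -0.0051), limma-voom (-0.019 and -0.0094) and no filter (-0.034 and -0.021), and for Hormad2 also with the replicate block in edgeR (-0.011) and DESeq2 (-0.023). With Ctrl replicate 1 and Ezh2 KO replicate 2 removed, the turned values were 0.16 for Stra8, 0.44 for Stag3, -0.14 for Hormad2, 0.030 for Dmc1, -0.14 for Ythdc2, 0.16 for Msh5, -0.12 for Tex12, -0.10 for Syce1, 0.66 for Syce3, -0.0093 for Terb2, -0.065 for Meiob and -0.034 for Psmc3ip. With 1 library left out in turn, values ran from -0.22 to 0.26 for Sycp3, -0.51 to 0.13 for Stra8, -0.54 to 0.24 for Stag3, -0.10 to 0.14 for Hormad2, -0.0054 to 0.51 for Ythdc2, -0.33 to 0.036 for Msh5, -0.12 to 0.35 for Tex12, -0.030 to 0.30 for Syce1, -1.35 to 0.30 for Syce3 and -0.40 to 0.22 for Majin. For the members whose groups did not overlap they ran from 0.60 to 0.90 for Brdt, 0.43 to 0.69 for Prdm9, 0.14 to 0.54 for Mlh3 and -0.38 to -0.29 for Sycp1. The cause was not tested. Depth limits Syce3, Meiob, Msh4 and Sycp2 most, with 4 to 36 reads per library, and the median half-width of a member's 95% interval was 0.73 on the log2 scale.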
